A study of Mus musculus with 6 samples.

Results

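The aim was to learn which parts of the surfactant program were present in MLE12 cells. A further aim was to learn how they moved after shRNA knockdown of *Idh3α* and *Slc25a1*, genes of mitochondrial citrate handling. For this, 10 surfactant and alveolar type 2 genes were read from a table of 54532 genes by their gene names. These were *Sftpa1*, *Sftpb*, *Sftpc*, *Sftpd*, *Abca3*, *Lamp3*, *Napsa*, *Nkx2-1*, *Etv5* and *Slc34a2*, and each name matched 1 gene. MLE12 cells are mouse lung alveolar epithelial cells, labelled as strain C57BL/6J. They are an immortalized line derived from lung tumors of mice that carried a viral large T antigen under the human surfactant protein C promoter. All cells were infected with lentivirus. The Ctrl shRNA group (3 samples) received a negative control lentivirus at an MOI (infectious particles per cell) of 50. The paper calls it both empty LV vectors and shCtrl lentivirus, and lists a sequence for it. The knockdown group (3 samples) received an Idh3α-silencing and an Slc25a1-silencing lentivirus together, each at an MOI of 50, with 1 shRNA sequence per gene. The labels do not say whether the total dose of virus was matched between the groups. IDH3α is a subunit of the mitochondrial isocitrate dehydrogenase, and Slc25a1 is the mitochondrial citrate carrier. Medium was changed after 16 h and RNA was taken after a further 80 h. The labels do not say whether the samples of a group came from separate cultures, so the p-values measure the spread between these samples, which may be technical.

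Alveolar type 2 cells make surfactant, a film of phospholipid and protein that lowers surface tension in the alveoli. The hydrophobic proteins SP-B and SP-C are cut from larger precursors and stored with lipid in lamellar bodies, whereas the collectins SP-A and SP-D bind microbes in the airspace. NKX2-1 and ETV5 are transcription factors that maintain this program, and the other genes encode its processing, transport and membrane proteins.

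The promoters of these genes are shown because NKX2-1, the most abundant transcript of the group, is a known activator of surfactant protein promoters. RefSeq sequences of GRCm38.p6 were available for 7 of the 10 genes, with 8 promoters among them. Those of *Sftpc*, *Sftpd* and *Napsa* were not among them. The 250 bases before each transcription start were searched on both strands for CTCAAG, a core of NKX2-1 sites, TGTTTNC for FOXA factors and CCGGAAG for ETS factors. CTCAAG or its reverse complement was in 13.3% of the 32851 mouse promoters of this length, TGTTTNC in 17.8% and CCGGAAG in 6.9%. The promoters below belong to a gene at a low level (*Sftpb*), a gene at 0 counts in 5 of 6 samples (*Sftpa1*) and an expressed gene (*Abca3*). They are printed 5′ to 3′ with CTCAAG matches of either strand in capitals. They lie at chr6:72304360-72304609 (plus strand), chr14:41131538-41131787 (plus strand) and chr17:24351773-24352022 (plus strand).
Sftpb: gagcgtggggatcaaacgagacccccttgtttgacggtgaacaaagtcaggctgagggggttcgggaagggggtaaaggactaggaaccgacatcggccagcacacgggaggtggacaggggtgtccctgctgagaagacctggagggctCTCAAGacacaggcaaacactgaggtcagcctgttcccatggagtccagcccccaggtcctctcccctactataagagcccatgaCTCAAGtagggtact
Sftpa1: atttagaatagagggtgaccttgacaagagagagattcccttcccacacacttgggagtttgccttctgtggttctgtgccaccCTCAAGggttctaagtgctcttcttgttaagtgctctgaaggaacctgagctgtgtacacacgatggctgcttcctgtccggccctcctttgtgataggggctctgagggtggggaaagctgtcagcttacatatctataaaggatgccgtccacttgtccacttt
Abca3: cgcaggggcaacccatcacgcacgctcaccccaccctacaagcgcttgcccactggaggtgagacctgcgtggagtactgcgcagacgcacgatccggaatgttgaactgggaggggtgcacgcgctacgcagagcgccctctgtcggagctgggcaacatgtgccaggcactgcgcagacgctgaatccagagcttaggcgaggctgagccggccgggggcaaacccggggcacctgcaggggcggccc
*Sftpb* held 2 matches, at positions -100 and -15 from the start site, and 1 match to TGTTTNC. *Sftpa1* held 1 CTCAAG match, at position -166. *Abca3*, *Nkx2-1*, *Slc34a2*, *Lamp3* and both *Etv5* promoters held no CTCAAG match, and none of the 8 promoters held CCGGAAG. The TGTTTNC match was also found in *Lamp3* (2 matches) and in 1 of the 2 *Etv5* promoters. A match describes these letters only, and binding was not measured.

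The authors deposited raw counts of reads per gene. Total counts ran from 27273502 to 28535653 per sample, so depth was nearly even. Ctrl shRNA replicate 2 stood apart from the other 5 samples. Genes with any count numbered 16681 in it and 19902 to 23147 in the others, and mitochondrially encoded genes took 6.49% of its counts against 1.57% to 1.80%. Its TMM factor, which rescales a library for its composition, was 0.711 against 1.05 to 1.09, so the levels and tests of the 10 genes are given with and without it. The silenced mRNAs were checked first. *Idh3α* stood at 79.8 to 137 CPM (counts scaled to the rescaled library size) in Ctrl shRNA and at 55.5 to 58.5 CPM in knockdown samples. *Slc25a1* stood at 98.7 to 108 CPM and 63.0 to 69.6 CPM. The log2 fold changes were -0.85 and -0.62, and -0.60 and -0.66 without Ctrl shRNA replicate 2, so part of each mRNA remained. Both ran lower in every knockdown sample, although neither passed the threshold of an adjusted p under 0.05 with all 6 samples (adjusted p = 0.254 and 0.104 by edgeR's quasi-likelihood method, Benjamini-Hochberg adjusted across the table), and both passed without Ctrl shRNA replicate 2 (adjusted p = 0.0142 and 0.00649).

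The levels of the 10 genes were compared per length, as RPKM (CPM divided by the gene's length in kilobases). *Nkx2-1*, *Sftpc*, *Abca3* and *Etv5* were clearly expressed. *Sftpb* and *Napsa* were lower, with Ctrl shRNA levels at the 20.3 and 8.07 percentiles of the genes tested. *Lamp3*, *Slc34a2*, *Sftpa1* and *Sftpd* had at most 11 counts in any sample.

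*Nkx2-1* (ENSMUSG00000001496, chromosome 12 of GRCm38, 56531958 to 56536908, minus strand) was the most abundant. Its level in Ctrl shRNA was 118 ± 3.74 RPKM (SD, n = 3), above that of 96.9% of the genes tested. *Sftpc* (ENSMUSG00000022097, chromosome 14, 70520949 to 70524081, minus strand) followed with 62.0 ± 28.0 RPKM (SD, n = 3), at the 93.5 percentile. The highest *Sftpc* sample was Ctrl shRNA replicate 2, with 2.05 times the mean CPM of replicates 1 and 3. *Abca3* (ENSMUSG00000024130, chromosome 17, 24351950 to 24410201, plus strand) stood at 14.4 ± 1.77 RPKM (SD, n = 3), at the 72.6 percentile. *Etv5* (ENSMUSG00000013089, chromosome 16, 22381309 to 22439719, minus strand) stood at 6.03 ± 0.599 RPKM (SD, n = 3), at the 51.9 percentile.

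Below these, *Sftpb* (ENSMUSG00000056370, chromosome 6, 72304610 to 72314371, plus strand) had a level of 0.822 ± 0.466 RPKM (SD, n = 3) in Ctrl shRNA. *Napsa* (ENSMUSG00000002204, chromosome 7, 44572380 to 44586862, plus strand) had a level of 0.237 ± 0.0596 RPKM (SD, n = 3). SP-B and SP-C are both part of surfactant, and the mean Ctrl shRNA level per length of *Sftpc* was 75.4 times that of *Sftpb*, or 43.1 times without Ctrl shRNA replicate 2 (45.9 and 1.07 RPKM). Without that replicate the other means were 120.4 RPKM for *Nkx2-1*, 15.4 for *Abca3*, 6.18 for *Etv5* and 0.213 for *Napsa*, in the same order. The highest Ctrl shRNA sample of *Lamp3*, 0.104 RPKM, was below the lowest of *Napsa*, 0.170 RPKM. Down to *Lamp3*, each gene's lowest Ctrl shRNA sample stood above the highest of the gene next in order, and the same was true of the knockdown samples. *Slc34a2*, *Sftpa1* and *Sftpd* could not be ordered.

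**Figure D1:**
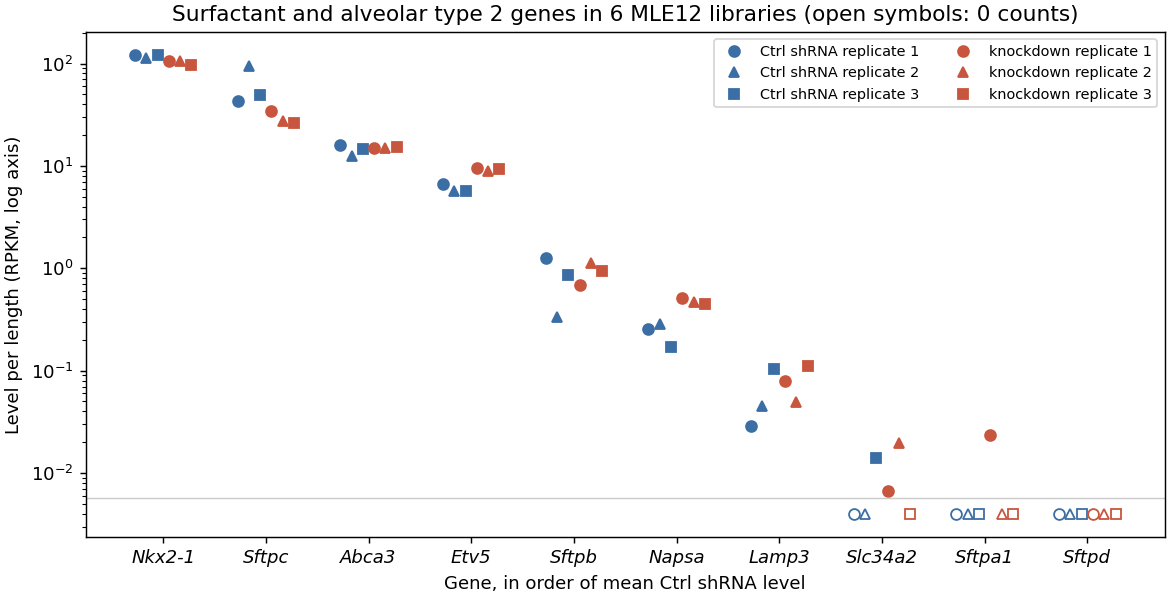
Level per length (RPKM, log axis) of the 10 genes in each of the 6 samples, with Ctrl shRNA in blue, knockdown in red and a symbol for each replicate number. Open symbols under the grey line mark samples with 0 counts, and *Nkx2-1* at 118 RPKM and *Sftpd* at 0 counts mark the ends of the order.

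The collectin genes were at or near 0 counts. *Sftpd* (ENSMUSG00000021795, chromosome 14, 41172214 to 41185149) had 0 counts in all 6 samples. A count of 0 allows up to 3 counts per sample, which here is 0.0969 to 0.152 CPM, and these limits cover counting error only. *Sftpa1* (ENSMUSG00000021789, chromosome 14, 41131782 to 41136452) had 2 counts in knockdown replicate 1 and 0 in the other samples. *Slc34a2* (ENSMUSG00000029188, chromosome 5, 53038081 to 53071664), a sodium-phosphate cotransporter of the apical membrane, had 2 counts in Ctrl shRNA replicate 3. In the knockdown replicates it had 1, 3 and 0 counts. *Lamp3* (ENSMUSG00000041247, chromosome 16, 19653378 to 19706375), a membrane protein of lamellar bodies, had 3, 3 and 10 counts in Ctrl shRNA replicates 1, 2 and 3. Its knockdown replicates had 8, 5 and 11 counts. At these counts a difference between the groups was not detectable, and the filter on low counts left the 4 genes out with all 6 samples. Fitted by edgeR without that filter, *Lamp3*, *Slc34a2* and *Sftpa1* had adjusted p-values of 0.843, 0.855 and 0.614. Without Ctrl shRNA replicate 2, *Lamp3* passed the filter with a log2 fold change of 0.27 and a 95% interval from -1.31 to 1.85.

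Of the 10 genes, 6 passed the filter on low counts with all 6 samples, and 0 were higher and 0 lower in knockdown cells by edgeR once p-values were adjusted. In this test 0.0588% of the 15307 genes tested were higher and 0.00653% lower. At an unadjusted p under 0.05, 2 of the 6 were higher, *Etv5* and *Napsa*, and 2 lower, *Sftpc* and *Nkx2-1*, against 7.47% higher and 6.65% lower among all genes tested. In these 4 genes the CPM values of the groups did not overlap, which was so for 14.7% of the genes tested in the higher and 10.7% in the lower direction. The median log2 fold change of the 6 genes was 0.10, and that of all genes tested was -0.0092. Without Ctrl shRNA replicate 2, 7 genes were tested and 1 rose (*Etv5*) and 1 fell (*Sftpc*), against 1.11% higher and 0.675% lower among the 15709 genes tested. The median of the 7 was then -0.040, against -0.015 over all genes.

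The transcription factor genes had log2 fold changes of opposite sign. *Etv5* encodes an ETS factor that acts downstream of fibroblast growth factor signaling and is needed in type 2 cells. Its level was 27.6, 23.5 and 23.1 CPM in Ctrl shRNA replicates 1, 2 and 3. In the knockdown replicates it was 39.5, 36.5 and 37.9 CPM. All knockdown samples stood above all controls, and Ctrl shRNA replicate 2 lay between the other controls. The log2 fold change was 0.62 (standard error 0.098, edgeR adjusted p = 0.166), and without Ctrl shRNA replicate 2 it was 0.57 (standard error 0.098, adjusted p = 0.0312). The size of this difference, a 1.53-fold or 1.49-fold higher level, thus barely moved while the adjusted p did. With DESeq2 and all 6 samples the adjusted p was 0.00108.

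*Nkx2-1* encodes the homeodomain factor that specifies lung epithelium. It stood at 343, 324 and 341 CPM in Ctrl shRNA. In knockdown samples it stood at 302, 299 and 277 CPM, below every control. The log2 fold change was -0.20 (standard error 0.082, edgeR adjusted p = 0.353) and -0.23 without Ctrl shRNA replicate 2 (standard error 0.068, adjusted p = 0.128). With library size alone as the scale, in which the median of all genes was 0.16, it was -0.032. With TMM scaling and all samples, the 95% interval ran from -0.40 to -0.0014. The level of *Nkx2-1* stayed the highest per length of the 10 genes in every sample.

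Of the surfactant protein genes, *Sftpc* and *Sftpb* passed the filter, and the difference between their changes was not tested. *Sftpc*, which encodes the precursor of the hydrophobic SP-C, stood at 44.1, 97.3 and 50.9 CPM in Ctrl shRNA. In knockdown samples it stood at 35.9, 28.5 and 27.2 CPM, below the lowest control. The group means were 64.1 ± 29.0 and 30.5 ± 4.67 CPM (SD, n = 3 each). With all 6 samples the log2 fold change was -1.07 (standard error 0.31, edgeR adjusted p = 0.315). Without Ctrl shRNA replicate 2, the highest sample, it was -0.65 (standard error 0.12, adjusted p = 0.0438), or 1.56-fold lower in place of 2.09-fold. DESeq2 with all 6 samples gave an adjusted p of 0.0599. *Sftpc* was lower under each scale and each sample left out, but its size rested in part on a single control. Fewer cells with the transcript and less transcript per cell cannot be told apart in these bulk samples.

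*Sftpb*, which encodes the precursor of SP-B, had 77, 13 and 49 counts in Ctrl shRNA and 40, 68 and 55 counts in knockdown samples. Ctrl shRNA replicate 2 was the lowest sample for *Sftpb* and the highest for *Sftpc*, and the knockdown samples lay within the range of the controls. The log2 fold change was 0.15 with a 95% interval from -1.03 to 1.32, and -0.22 with an interval from -0.89 to 0.44 without that control. The first interval holds a 2-fold difference in either direction and the second does not.

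*Abca3* encodes the transporter that loads phospholipid into lamellar bodies. Its level was 141, 110 and 129 CPM in Ctrl shRNA, with the lowest value in replicate 2. In knockdown samples it was 132, 132 and 134 CPM, inside the range of the controls. The log2 fold change was 0.060 with a 95% interval from -0.19 to 0.31, and -0.040 with an interval from -0.19 to 0.11 without Ctrl shRNA replicate 2. *Abca3* shares 914 exonic bases (9.75%) with *D330041H03Rik* on the opposite strand, which had 930 counts over all samples. No source used here gives a strand setting for the counts, so reads from these bases cannot be told apart.

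*Napsa* encodes napsin A, an aspartic protease that processes the surfactant protein precursors. It had 21, 15 and 13 counts in Ctrl shRNA. In knockdown samples it had 41, 38 and 35 counts, above every control. As CPM its mean was 0.630 ± 0.159 and 1.27 ± 0.10 (SD, n = 3 each). The log2 fold change was 1.01 (standard error 0.33, edgeR adjusted p = 0.334) and 1.14 without Ctrl shRNA replicate 2 (standard error 0.34, adjusted p = 0.134). It had the highest log2 fold change of the tested genes at the lowest level. An annotated gene on the opposite strand, *Gm15396*, shares 502 of its exonic bases and had 0 counts.

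**Figure D2:**
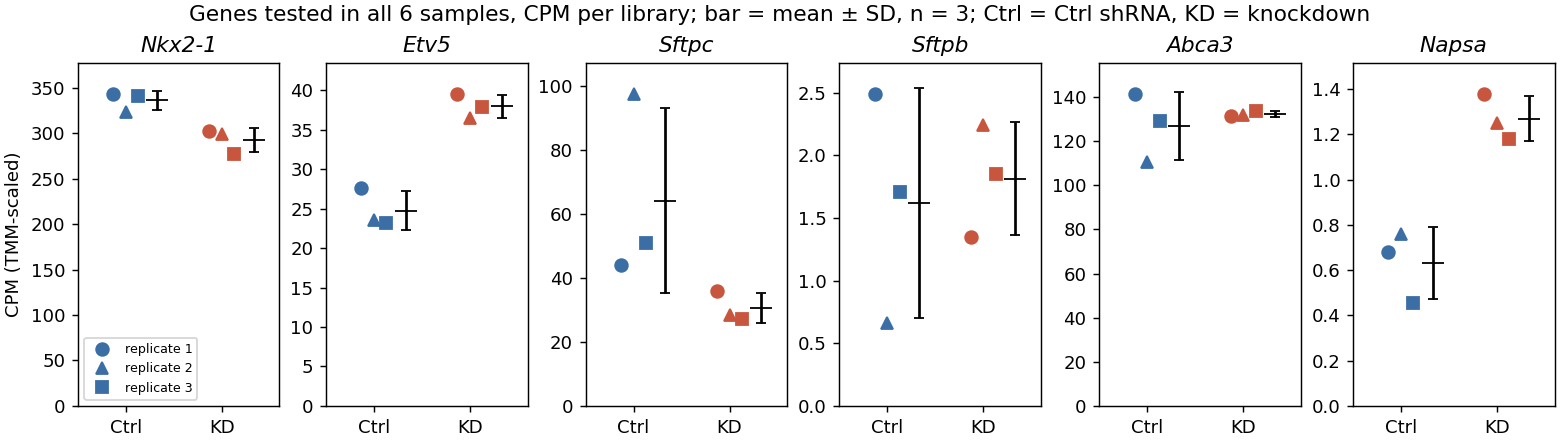
CPM, from 0, of the 6 genes tested with all samples, with a symbol for each replicate and bars for the mean ± SD (n = 3). *Etv5* and *Napsa* stand higher and *Nkx2-1* and *Sftpc* lower in all knockdown (KD) samples than in all Ctrl shRNA (Ctrl) samples, whereas *Sftpb* and *Abca3* overlap.

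**Figure D3:**
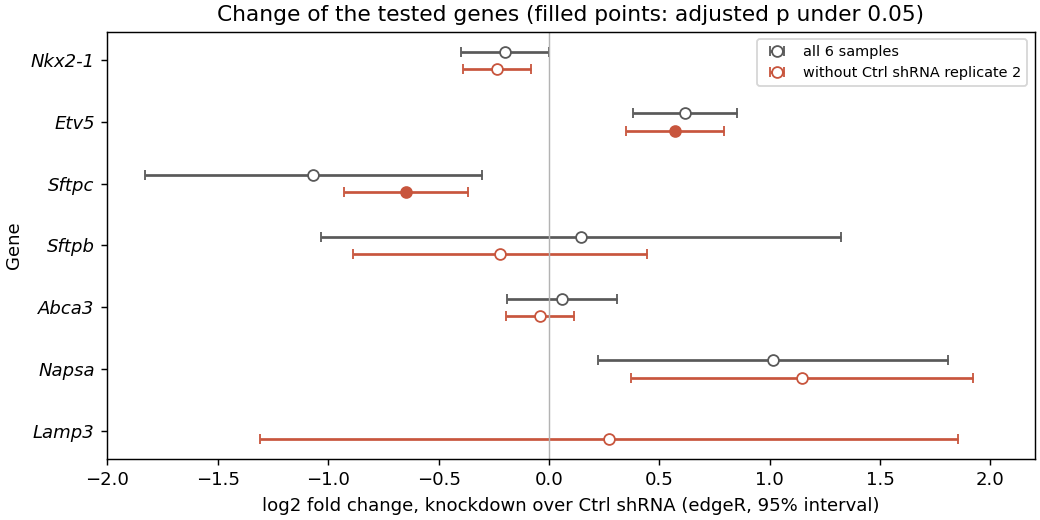
log2 fold change, knockdown over Ctrl shRNA, of each gene tested, with its 95% interval from edgeR, for all 6 samples (grey) and without Ctrl shRNA replicate 2 (red). Filled points passed an adjusted p under 0.05, which only *Etv5* (0.57) and *Sftpc* (-0.65) did, both without that replicate.

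Ratios of the genes to each other within a sample, which no scaling changes and which were added after the data were seen, kept the directions of *Sftpc* and *Etv5*. For every 100 counts of *Nkx2-1* there were 12.9, 30.1 and 14.9 counts of *Sftpc* in Ctrl shRNA and 11.9, 9.54 and 9.82 in knockdown samples. For *Etv5* the same ratio was 8.04, 7.27 and 6.78 in Ctrl shRNA and 13.1, 12.2 and 13.7 in knockdown samples. The *Napsa* ratio was 0.133 to 0.235 in Ctrl shRNA and 0.419 to 0.456 in knockdown samples, and the *Abca3* ratio was 34.1 to 41.2 and 43.5 to 48.2. The *Sftpb* ratio, 0.203 to 0.725 and 0.445 to 0.750, overlapped. *Nkx2-1* itself had a lower TMM-scaled CPM in every knockdown sample, which raises any ratio to it. Over the other 15306 genes tested, the ratio to *Nkx2-1* was higher in all knockdown samples than in all controls for 36.8% and lower for 2.01%, so a higher ratio was common.

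The number of the 10 genes past an adjusted p of 0.05 differed between tools. DESeq2 with all 6 samples called 1 higher (*Etv5*) and 0 lower, against 1.55% and 0.958% of all genes, and at an unadjusted p under 0.05 it had 2 higher and 2 lower, against 4.37% and 6.09% of the 27351 genes with a p-value. It gave 6 of the 10 genes an adjusted p, and 5 with Ctrl shRNA replicate 2 left out, where *Napsa* had none. With Ctrl shRNA replicate 2 left out DESeq2 called *Etv5* higher and *Sftpc* and *Nkx2-1* lower, against 3.93% and 2.65%. Limma with sample quality weights called *Etv5* and *Napsa* higher and *Sftpc* and *Nkx2-1* lower, against 8.67% and 6.34%, and gave Ctrl shRNA replicate 2 a weight of 0.101.

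The lists of genes that serve the same program were examined next. For surfactant lipid, 9 of 10 genes were tested. *Pnpla2*, a triglyceride lipase, was the most abundant at 30.2 ± 3.60 RPKM (SD, n = 3) in Ctrl shRNA. *Lpcat1* and *Pcyt1a* were picked with their values in view. *Lpcat1*, which remodels phosphatidylcholine into its surfactant form, stood at 24.1 ± 5.04 RPKM, and *Pcyt1a*, of the rate-limiting step of phosphatidylcholine synthesis, stood at 18.6 ± 1.64 RPKM (SD, n = 3 each). None of the 9 was higher or lower in edgeR, with all 6 samples or without Ctrl shRNA replicate 2. Their median log2 fold changes were 0.15 and 0.097, and at an unadjusted p under 0.05 there were 0 higher and 1 lower with all samples, against 7.47% and 6.65% of all genes, which is the background of every such count below from this fit. In Ctrl shRNA 4 of the 10 lipid genes stood at 10 RPKM or more.

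Of the 9 genes for precursor processing and lamellar body assembly, all were tested and 0 passed with all 6 samples in edgeR, with 1 higher and 0 lower at an unadjusted p under 0.05. *Nedd4*, a ubiquitin ligase, was the most abundant, at 144 ± 11.95 RPKM (SD, n = 3) in Ctrl shRNA and 141 ± 5.12 RPKM (SD, n = 3) in knockdown samples. *Adgrf5*, an adhesion receptor that limits the surfactant pool, stood at 8.30, 2.53 and 7.39 CPM in Ctrl shRNA. In knockdown samples it was 3.60, 3.72 and 3.88 CPM, so that Ctrl shRNA replicate 2 was below all of them and the other controls were above. Its log2 fold change was -0.71 (edgeR adjusted p = 0.418) and, without that replicate, it fell by 1.08 on the log2 scale (standard error 0.14, adjusted p = 0.0142). *Ctsh*, a cathepsin that cuts the SP-B precursor and was singled out after its values were seen, was 41.6, 47.6 and 46.8 CPM in Ctrl shRNA and 64.0, 54.6 and 59.1 CPM in knockdown samples, without passing the threshold (log2 fold change 0.39, edgeR adjusted p = 0.268, and 0.0687 without Ctrl shRNA replicate 2).

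All 13 lung epithelial transcription factor genes were tested and 0 passed in edgeR in either fit, with 2 higher and 1 lower at an unadjusted p under 0.05 in each. Over all genes the shares were 7.47% and 6.65% with all samples, and 9.54% and 10.3% without Ctrl shRNA replicate 2. *Foxa2*, which with NKX2-1 drives type 2 genes, had the highest level per length at 26.5 ± 1.29 RPKM (SD, n = 3). The list holds both close relatives of *Etv5*, *Etv4* and *Etv1*, which were chosen after their values were seen and differed in sign. *Etv4* stood at 20.4, 14.1 and 19.9 CPM in Ctrl shRNA and at 25.6, 24.5 and 25.1 CPM in knockdown samples. All its knockdown samples were higher, as for 14.7% of the genes tested, with a log2 fold change of 0.46 (edgeR adjusted p = 0.339), and 0.30 (adjusted p = 0.115) without Ctrl shRNA replicate 2. *Etv1* stood at 1.00, 0.810 and 1.78 CPM in Ctrl shRNA and at 0.907, 1.12 and 1.38 CPM in knockdown samples, and the groups overlapped. Its log2 fold change was -0.082 (edgeR adjusted p = 0.931), and -0.29 (adjusted p = 0.675) without Ctrl shRNA replicate 2.

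Of 12 further type 2 marker genes, 10 were below 1 RPKM in Ctrl shRNA, and *Lyz1* and *Hc* had 0 counts in every sample. *Fgfr2*, the receptor for fibroblast growth factors, was the most abundant at 1.93 ± 0.115 RPKM (SD, n = 3). Of the 4 tested with all 6 samples, 0 passed in edgeR, with 1 higher and 1 lower at an unadjusted p under 0.05, and 0 of 5 passed without Ctrl shRNA replicate 2, with 1 higher and 0 lower unadjusted. Over these 4 lists, DESeq2 with all samples called 0 of the 34 genes to which it gave an adjusted p. Of the 42 it fitted, 3 were higher and 4 lower at an unadjusted p under 0.05, against 4.37% and 6.09% of all genes it fitted. Limma with sample quality weights called 5 higher and 3 lower of 35, against 8.67% and 6.34% of all genes.

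The label of the cells was set against markers of other lung cell types. The type 2 genes were a partial set. The markers of alveolar type 1 cells, the flat cells of gas exchange, were present at a higher summed level. This was 723 to 781 RPKM in Ctrl shRNA and 592 to 629 RPKM in knockdown samples. For the 10 surfactant and type 2 genes the sum was 188 to 227 and 150 to 167 RPKM. Each sum depends on the genes listed, and *Nkx2-1* alone had a mean of 118 RPKM in Ctrl shRNA. Of the 10 type 1 markers, 8 stood at 10 RPKM or more in Ctrl shRNA. *Ager*, a receptor used to mark type 1 cells, was the most abundant at 198 ± 25.0 RPKM (SD, n = 3), above *Nkx2-1*. It stood at 437, 365 and 470 CPM in Ctrl shRNA and at 350, 307 and 319 CPM in knockdown samples. Its log2 fold change was -0.38 (edgeR adjusted p = 0.334), and without Ctrl shRNA replicate 2 it fell by 0.49 on the log2 scale (standard error 0.077, adjusted p = 0.0223). It was the only type 1 marker past the threshold there, and with all samples 0 passed in edgeR, with 0 higher and 4 lower at an unadjusted p under 0.05, against 7.47% and 6.65% of all genes. DESeq2 called 0 of the 10 with all samples, also with 0 higher and 4 lower unadjusted, against 4.37% and 6.09% of all genes it fitted. Limma with sample quality weights called 0 higher and 4 lower (*Ager*, *Igfbp2*, *Cav1* and *Emp2*), against 8.67% and 6.34% of all genes. The log2 fold change was negative in 8 of the 10 in both edgeR fits, with a median of -0.19, and -0.17 without Ctrl shRNA replicate 2. The part of the type 1 markers in the *Sftpc* result was not tested.

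Airway markers were low, with 8 of 9 below 1 RPKM and *Scgb3a2* and *Krt5* at 0 counts. Their highest was *Muc5b* at 3.84 ± 0.827 RPKM (SD, n = 3). The summed level of the 9 was 3.24 to 5.24 RPKM in Ctrl shRNA and 4.05 to 4.84 RPKM in knockdown samples. Of the general epithelial markers, *Krt19* was highest at 423 ± 44.8 RPKM (SD, n = 3), and *Epcam*, an adhesion molecule singled out after its values were seen, stood at 1.80 ± 0.190 RPKM (SD, n = 3). The leukocyte markers *Ptprc*, *Marco* and *Adgre1* had 0 counts in every sample, and their list summed to 1.48 to 1.67 RPKM in Ctrl shRNA and 2.15 to 2.49 RPKM in knockdown samples. The most abundant of that list was *Cd68*, a lysosomal protein of macrophages, with 51, 38 and 51 counts in Ctrl shRNA and 75, 71 and 81 in knockdown samples (log2 fold change 0.51, edgeR adjusted p = 0.352). *Mrc1*, a macrophage mannose receptor and the other tested gene of the list, was picked with its values in view and had 34, 18 and 39 against 58, 54 and 59 counts (0.75, edgeR adjusted p = 0.339). Both had higher CPM in all knockdown samples than in all controls, as did 14.7% of the genes tested. The endothelial list summed to 7.78 to 9.78 and 6.78 to 7.03 RPKM, led by *Tek*. The fibroblast list summed to 58.7 to 211 RPKM in Ctrl shRNA and 53.8 to 58.4 RPKM in knockdown samples, with *Col3a1* at 0 counts. It was led by *Dcn*, a matrix proteoglycan gene, at 320, 1211 and 354 CPM in Ctrl shRNA replicates 1, 2 and 3. In knockdown samples *Dcn* was at 297, 318 and 300 CPM. The sum of 211 RPKM was that of Ctrl shRNA replicate 2, where *Dcn* alone stood at 207 RPKM. Ctrl shRNA replicate 2 was thus highest for both *Dcn* and *Sftpc*, and the part of that sample in the *Sftpc* difference is given by the fit without it. The fibroblast list did not move together there. Against the mean CPM of replicates 1 and 3, replicate 2 stood at 3.59 for *Dcn* and 2.455 for *Lum*. The same ratio was 0.957 for *Col1a1*, 0.907 for *Pdgfra* and 0 for *Col1a2*. Over the 6 marker lists 0 of 27 genes passed in edgeR with all samples, with 3 higher and 5 lower at an unadjusted p under 0.05, against 7.47% and 6.65% of all genes. Without Ctrl shRNA replicate 2, 0 were higher and 1 lower (*Ager*) of 28, against 1.11% and 0.675% of all genes. DESeq2 called 0 of the 25 with an adjusted p, with 4 higher and 6 lower unadjusted of 37 fitted, against 4.37% and 6.09% of all genes it fitted. Limma with sample quality weights called 2 higher and 5 lower of 27, against 8.67% and 6.34% of all genes.

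**Figure D4:**
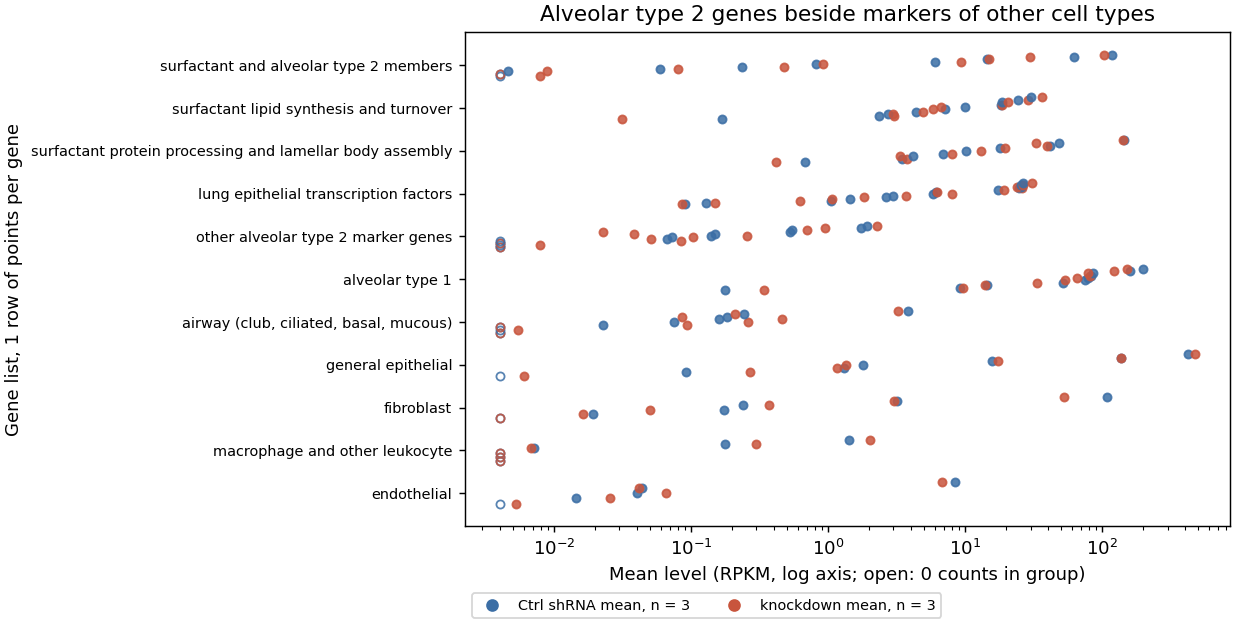
Mean level (RPKM, log axis) of each gene, by list, in Ctrl shRNA (blue) and knockdown (red), n = 3 each. Each list holds 1 row of points per gene, with open points for 0 counts. The 10 surfactant and type 2 genes run from 0 counts to 118 RPKM, and 8 of the 10 type 1 markers lie at 10 RPKM or above.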

How the data were processed

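RNA-seq of 6 MLE12 samples was analysed, 3 controls and 3 silenced for both Idh3α and Slc25a1, grouped by their titles. The authors deposited raw counts per gene and FPKM values, and per the labels libraries were made with a NEBNext Ultra kit and sequenced paired-end. The submitters' processing notes name HISAT2 2.0.5, StringTie 1.3.3b, featureCounts 1.5.0-p3 and mm10. Annotation release and strand setting are not given in the sources used here. Of 54409 genes also in GENCODE M21 of GRCm38, 98.3% had the same start and end. Total counts were 27273502 to 28535653 per sample. No column of per-sample values was left unused.

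Genes were filtered with filterByExpr, scaled by TMM and tested with edgeR 4.0.16 (quasi-likelihood, R 4.3.3) with Benjamini-Hochberg adjustment over all 15307 genes. Standard errors were derived from the F statistic. DESeq2 1.42.0, limma 3.58.1 with sample quality weights, limma on log2(FPKM + 1) or log2(FPKM + 0.1) for genes at 0.1 FPKM or more in 3 samples, 2 other scales, 2 other filters, the replicate number as a block and each sample left out were the alternatives. The scripts were tested on simulated counts. All 10 genes are described. Of the other lists the text gives counts, the genes past the threshold in either edgeR fit, the most abundant gene and those at 0 counts. A few more, named in the text, were chosen after their values were seen. The genes and lists were chosen with earlier results of these data known, and no list was tested as a set.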

Additional observations from a re-analysis of the deposited data

How the results depend on the processing

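Of the 6 genes tested, *Etv5* kept a positive and *Sftpc* and *Nkx2-1* a negative log2 fold change under all 16 alternatives, as did *Napsa* a positive one. *Etv5* ranged from 0.55 to 0.78 and *Sftpc* from -1.27 to -0.64. After Benjamini-Hochberg adjustment p lay between 1.13e-04 and 0.675 for *Etv5*, between 1.75e-04 and 0.675 for *Sftpc*, 0.0294 and 0.963 for *Nkx2-1* and 0.0221 and 0.675 for *Napsa* in these edgeR, DESeq2 and limma fits. *Napsa* was 1.01 in the edgeR fit but 0.26 on the log2(FPKM + 1) scale, which understates low genes. The sign of *Sftpb* turned to -0.22 without Ctrl shRNA replicate 2, -0.030 without knockdown replicate 2, -0.22 with DESeq2 without that control and -0.13 with sample quality weights. That of *Abca3* turned to -0.040 and, with DESeq2, to -0.034 without Ctrl shRNA replicate 2. With 1 sample left out in turn, *Sftpb* ranged from -0.22 to 0.59 and *Abca3* from -0.040 to 0.15, the highest without Ctrl shRNA replicate 1, and neither passed the threshold under any alternative. The cause was not tested.

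With 1 sample left out in turn, 0 to 1 of the 10 genes were higher and 0 to 1 lower, and over all genes 0 to 175 higher and 0 to 106 lower. The highest numbers all came without Ctrl shRNA replicate 2. Against 9 higher and 1 lower of all genes with edgeR, library size alone gave 1 and 0, no count filter 12 and 3, DESeq2 218 and 135, DESeq2 without that control 490 and 330, sample quality weights 1327 and 971, log2(FPKM + 1) 8 and 3, and log2(FPKM + 0.1) 25 and 3. Of the 10 genes, DESeq2 had 1 higher and 0 lower, DESeq2 without that control 1 and 2, and sample quality weights 2 and 2. Fitting the replicate number as a replicate block left 0 higher and 0 lower over all genes (687 and 446 at an unadjusted p under 0.05), and 0 of the 10 genes passed. Same-numbered samples deviated from their group means with correlations of -0.155, -0.092 and 0.043. Samples with different numbers had correlations of -0.0392 to 0.146. With 3 samples per group and 1 control that stood apart, these correlations cannot decide whether the numbers are pairs. The main fit did not pair them.

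Depth limits *Lamp3*, *Slc34a2*, *Sftpa1* and *Sftpd*, which hold too few counts for a comparison, and the interval of *Sftpb* is wide with all 6 samples. Ctrl shRNA replicate 2 is 1 of 3 controls, so results without it rest on 2 controls.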
